A study of Mus musculus with 28 samples.

Results

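Of 10 genes of glycolysis measured in retinal microglia, 1 was called as changed after lipopolysaccharide, at 4 h. Of all genes tested, 8.08% were called at that time. Pfkfb3 rose at 4 h, was back within the naïve range at 18 h and was not called at 2 weeks. The other 9 genes, Slc2a1, Hk1, Hk2, Pfkp, Aldoa, Gapdh, Pgk1, Pkm and Ldha, passed the test at none of the 3 times. A gene without a call is not thereby shown to be unchanged. The genes were chosen by name as the main steps from glucose uptake to lactate, and all 10 were found among the 40021 genes listed. All 10 also passed the filter on low values, which asked for 5 or more of the 28 retinas to reach an RPKM of 1, as did 13164 genes in all. RPKM is the number of reads on a gene scaled by the length of its transcript and the size of the library.

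Microglia were sorted from single retinas of male mice heterozygous for Cx3cr1CreER:R26-tdTomato on a C57BL/6 background, a line in which Cre recombinase under the promoter of the fractalkine receptor gene Cx3cr1 turns on a red fluorescent protein after tamoxifen. All groups, naïve included, carried these alleles and had received tamoxifen as eye drops when young, and live cells with high tdTomato were sorted. Endotoxin-induced uveitis (EIU) followed an injection of lipopolysaccharide (LPS), a bacterial cell wall component, into the vitreous some weeks later. The groups were naïve (10 retinas), 4 h (6), 18 h (5) and 2 weeks (7) after injection. No group was injected without LPS, so changes with LPS and changes with the injection itself cannot be told apart. Left and right eyes of 2 experiments were used, with only 1 of the 18 h retinas in experiment 2. Tagging in this line marks cells that use Cx3cr1, and the study checked its specificity for microglia by flow cytometry. Which retinas came from the same mouse is not given in the sources used here, so the p-values below measure the spread between retinas and may be too small.

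Glycolysis splits glucose into pyruvate in the cytosol and yields ATP without oxygen, and lactate dehydrogenase turns the pyruvate into lactate. Macrophages and microglia that meet LPS are known for taking up more glucose and releasing more lactate. The first steps, uptake and phosphorylation, spend ATP, and the later steps repay it. Flux is set largely at the transporter, at hexokinase and at phosphofructokinase, which is stimulated by fructose 2,6-bisphosphate, the product of the PFKFB enzymes.

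The promoters of the genes that the results turn on are shown first, because Pfkfb3 and the glucose transporter gene Slc2a6 rose at 4 h, Hk2 and Gapdh varied in opposite directions between retinas, and Ldha held the most matches. Each run is the 250 bases before a RefSeq start (GRCm38.p6, the build called mm10), written 5′ to 3′ in the sense of the gene. Capitals mark ACGTG and GCGTG on either strand, read as CACGT and CACGC on the other strand, the core letters of the hypoxia response element. Where ACGTG overlaps its own reverse, the run CACGTG is the E-box.
Pfkfb3 upstream start, chr2:11553930-11554179, minus strand: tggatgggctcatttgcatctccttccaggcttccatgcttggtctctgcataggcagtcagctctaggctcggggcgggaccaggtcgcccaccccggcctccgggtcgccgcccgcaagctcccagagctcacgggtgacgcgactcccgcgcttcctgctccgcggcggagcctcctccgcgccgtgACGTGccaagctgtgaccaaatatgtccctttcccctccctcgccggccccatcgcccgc
Pfkfb3 downstream start, chr2:11502091-11502340, minus strand: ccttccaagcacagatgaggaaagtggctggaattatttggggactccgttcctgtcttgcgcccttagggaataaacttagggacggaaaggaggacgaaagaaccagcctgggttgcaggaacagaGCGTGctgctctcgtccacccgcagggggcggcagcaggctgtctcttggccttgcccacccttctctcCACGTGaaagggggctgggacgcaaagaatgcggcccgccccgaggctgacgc
Slc2a6, chr2:27027999-27028248, minus strand: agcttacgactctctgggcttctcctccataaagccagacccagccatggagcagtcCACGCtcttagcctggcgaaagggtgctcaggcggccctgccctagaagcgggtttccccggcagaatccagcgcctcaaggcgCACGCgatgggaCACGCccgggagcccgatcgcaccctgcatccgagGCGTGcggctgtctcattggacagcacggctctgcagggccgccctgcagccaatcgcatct
Hk2, chr6:82774455-82774704, minus strand: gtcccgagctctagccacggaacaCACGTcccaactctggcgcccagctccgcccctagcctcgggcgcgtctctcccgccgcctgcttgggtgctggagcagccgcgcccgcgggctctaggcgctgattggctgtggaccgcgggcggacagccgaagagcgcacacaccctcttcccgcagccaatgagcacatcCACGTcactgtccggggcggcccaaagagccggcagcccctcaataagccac
Gapdh, chr6:125165774-125166023, minus strand: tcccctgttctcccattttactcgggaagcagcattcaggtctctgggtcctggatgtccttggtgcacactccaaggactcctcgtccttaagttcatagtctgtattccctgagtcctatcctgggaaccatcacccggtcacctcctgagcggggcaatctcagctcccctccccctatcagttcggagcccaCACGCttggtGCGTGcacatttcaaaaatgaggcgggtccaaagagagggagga
Ldha upstream start, chr7:46845554-46845803, plus strand: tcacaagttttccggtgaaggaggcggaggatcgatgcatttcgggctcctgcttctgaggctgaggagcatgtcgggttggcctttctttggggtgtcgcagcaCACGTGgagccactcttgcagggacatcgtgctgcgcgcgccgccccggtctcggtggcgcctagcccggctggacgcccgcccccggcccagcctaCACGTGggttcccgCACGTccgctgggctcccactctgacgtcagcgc
Pfkfb3 has an ACGTG match in both windows, and its downstream window also holds a GCGTG and the E-box. Slc2a6 has 4 GCGTG matches and Hk2 has 2 ACGTG matches, while Gapdh has 2 GCGTG matches within 54 bases of its start. The upstream Ldha window has 5 ACGTG matches, 4 of them in a pair of E-boxes. All 10 genes matched a RefSeq promoter, with 16 windows in all. ACGTG lay in 9 windows, GCGTG in 6 and either of them in 13, against 16.6%, 28.2% and 38.6% of all 32851 windows of this length. The windows of Aldoa starts 2 and 3 overlap, and the same ACGTG site is counted in both. The 16 windows held 49.6% to 69.6% G and C, against a median of 52.4% over all windows. These are matches of letters only and show no binding.

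Retinas differed from each other in ways that the groups do not explain. They held between 7510000 and 19700000 alignments and between 6552 and 11825 genes with an RPKM of at least 1. The 4 retinas below 8000 such genes were naïve retinas 3 and 4, retina 4 at 18 h and retina 1 at 2 weeks. Microglial genes were high, with P2ry12 between 866 and 2710 RPKM in naïve retinas. Rod photoreceptor genes were also high, and the summed RPKM of 10 rod genes ran from 1784 to 8019 over the 28 retinas. The median of that sum was 2772 in experiment 1 and 6793 in experiment 2. Of 14 microglial genes 6 were called lower at 4 h and 8 at 18 h, among them P2ry12 at both times, and 0 at 2 weeks. Calls in either direction were made for 8.08%, 4.69% and 0.0076% of all genes tested at these 3 times. Of 8 neutrophil genes 0 passed the filter, with a summed level of no more than 0.104 RPKM in the naïve group and 0 to 15.8 at 18 h, where S100a8 reached 9.24 RPKM. The highest sums were in retinas 2 and 3 at 18 h (10.4 and 15.8), and the part of these cells in the 18 h values was not tested. Of 9 lymphocyte genes, 1 passed the filter, the cytotoxic granule gene Nkg7, which was at 0 in every naïve and 4 h retina and rose to between 5.77 and 86.4 RPKM at 18 h. Retina 5 at 4 h had 735 RPKM of erythrocyte genes, against 43.5 at most in naïve retinas.

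Fold changes are differences of mean log2(RPKM + 1) and understate the change of genes with low values. They come with their standard error and a Benjamini-Hochberg adjusted p from limma, fitted on all 13164 genes. Genes that changed by 2-fold or more, with an adjusted p no higher than 0.05, were called.

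**Figure D1:**
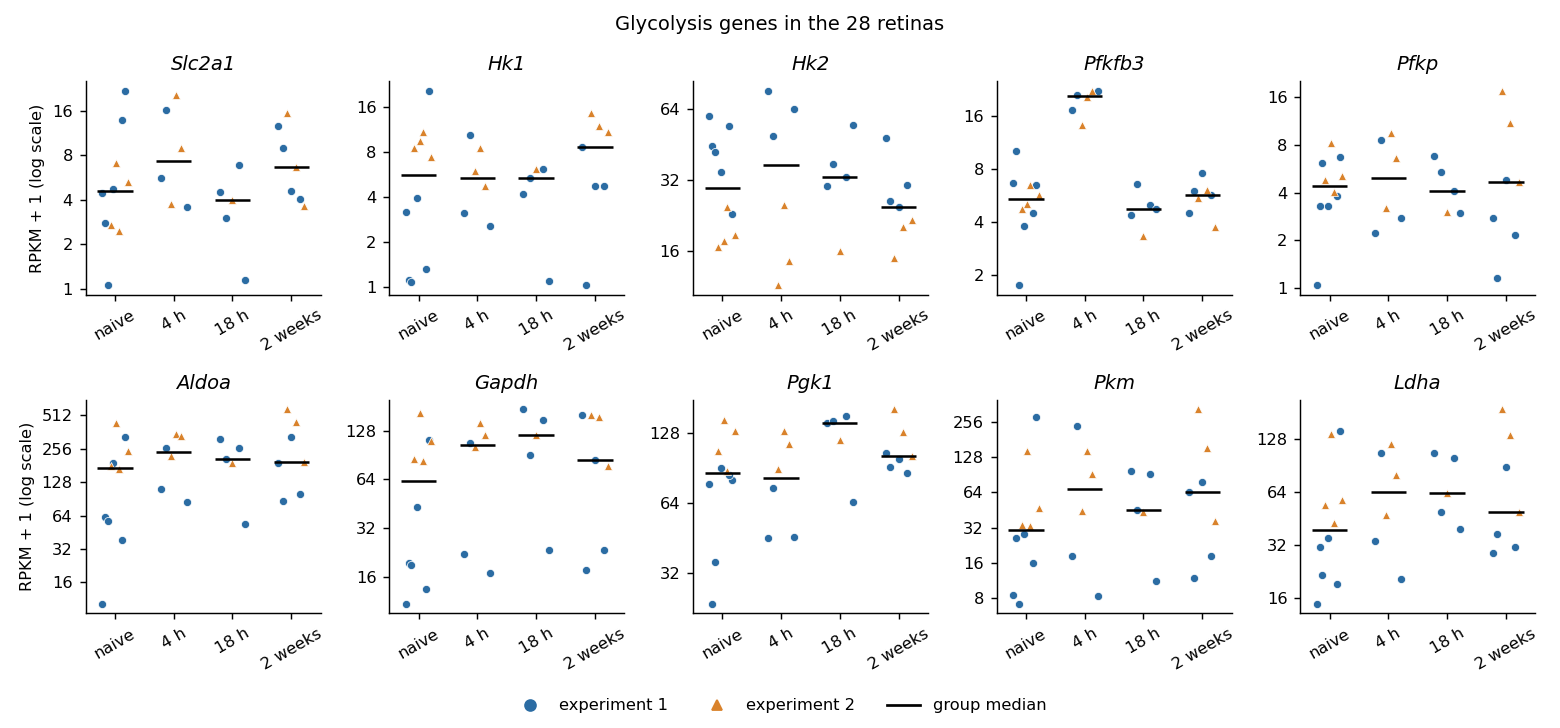
RPKM + 1 on a log scale of each of the 10 glycolysis genes in each of the 28 retinas, by group, with circles for experiment 1, triangles for experiment 2 and a bar at the group median. The 6 retinas at 4 h sit above all 10 naïve retinas for Pfkfb3, and the groups overlap for the other 9 genes.

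The order of levels in naïve retinas, in RPKM, was led by the enzymes of the later steps. Aldoa had the highest median, 173 RPKM, followed by Pgk1 with 85.2, Gapdh with 61.9, Ldha with 37.9 and Pkm with 29.5. Hk2 had a median of 28.5 RPKM, and Hk1, Pfkfb3, Slc2a1 and Pfkp followed with 4.63, 4.38, 3.61 and 3.43. Each gene's range overlapped with that of its neighbours in this order. Compared within each retina, Hk2 was above Hk1 in every naïve retina, and the other neighbouring genes changed order in some.

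Pfkfb3, the PFKFB isozyme whose kinase most outweighs its phosphatase, drives phosphofructokinase by making fructose 2,6-bisphosphate. In naïve retinas it lay between 0.741 and 9.08 RPKM (median 4.38). At 4 h it lay between 13.3 and 21.4 RPKM (median 19.9). All 6 of these retinas were above all 10 naïve retinas. The mean rose from 4.52 ± 2.19 RPKM (SD, n = 10) to 18.7 ± 3.19 (SD, n = 6), a log2 fold change of 1.94 (SE 0.305, adjusted p = 3.3e-05 by limma). It was 1 of 10 genes called at 4 h, where 8.08% of all genes tested were called and 3.68% were called higher. Of all genes tested, 1.65% had every 4 h retina above every naïve retina.

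At 18 h the 5 retinas had 3.39, 5.57, 3.99, 3.75 and 2.32 RPKM of Pfkfb3. All were below all 4 h retinas, a pattern held by 2.79% of all genes tested, and within the naïve range. The log2 fold change from 4 h to 18 h was -2.06 (SE 0.357, adjusted p = 0.00027 by limma). Pfkfb3 was the only one of the 10 genes called in that comparison, where 5.42% of all genes were called and 2.51% were called lower. At 2 weeks it lay between 2.74 and 6.55 RPKM (median 4.67), again within the naïve range. The differences from naïve were -0.12 at 18 h (95% confidence interval -0.775 to 0.544) and 0.10 at 2 weeks (-0.49 to 0.696). Both intervals lie within 1 on the log2(RPKM + 1) scale, but at these low values the first does not leave out a 2-fold fall in RPKM itself.

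Both experiments gave the rise. In experiment 1 the mean went from 4.54 to 19.4 RPKM, with a log2 fold change of 2.06 (adjusted p = 0.0021 by limma) over 6 naïve and 3 treated retinas. In experiment 2 it went from 4.5 to 18.1 RPKM, with a change of 1.78 (adjusted p = 0.042) over 4 and 3 retinas. The difference between these changes was -0.28 (SE 0.631, adjusted p = 1). None of the 10 genes passed the test of such a difference, which 0.0988% of all genes passed at an adjusted p of at most 0.05.

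The antisense gene Gm10851 overlaps Pfkfb3 on chromosome 2, and the library kit does not mark strand. Pfkfb3 lies at chr2:11471433-11554077 on the minus strand. Gm10851 was between 0 and 0.937 RPKM in naïve retinas and between 0.529 and 12.7 at 4 h (median 4.19). It was at most 1.72 RPKM at 18 h and 1.2 at 2 weeks. A second overlapping gene, Gm37975 on the strand of Pfkfb3, did not exceed 0.0501 RPKM in naïve tissue and lay between 0 and 1.82 at 4 h (median 0.724). Reads of the overlapping parts cannot be told apart between these genes, and the part of Gm10851 and Gm37975 in the rise of Pfkfb3 was not tested.

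The family of Pfkfb1 to Pfkfb4 shifted towards Pfkfb3. In naïve retinas Pfkfb3 made up 34.3% ± 15.5 (SD, n = 10) of the summed RPKM of the 4 genes, between 10.6% and 62.5%. At 4 h it made up 80.9% ± 5.52 (SD, n = 6), between 75% and 89.9%. Every 4 h retina was above every naïve retina. The difference of 46.6 percentage points had an exact two-sided permutation p of 0.00012, the smallest that 8008 splits can give, or 0.0019 adjusted over 15 tests of shares. The share was 43.8% ± 13 (SD, n = 5) at 18 h and 34.3% ± 13.4 (SD, n = 7) at 2 weeks, and neither passed the exact permutation test (adjusted p = 0.48 and 1.0). The rise of Pfkfb3 itself enters this share.

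**Figure D2:**
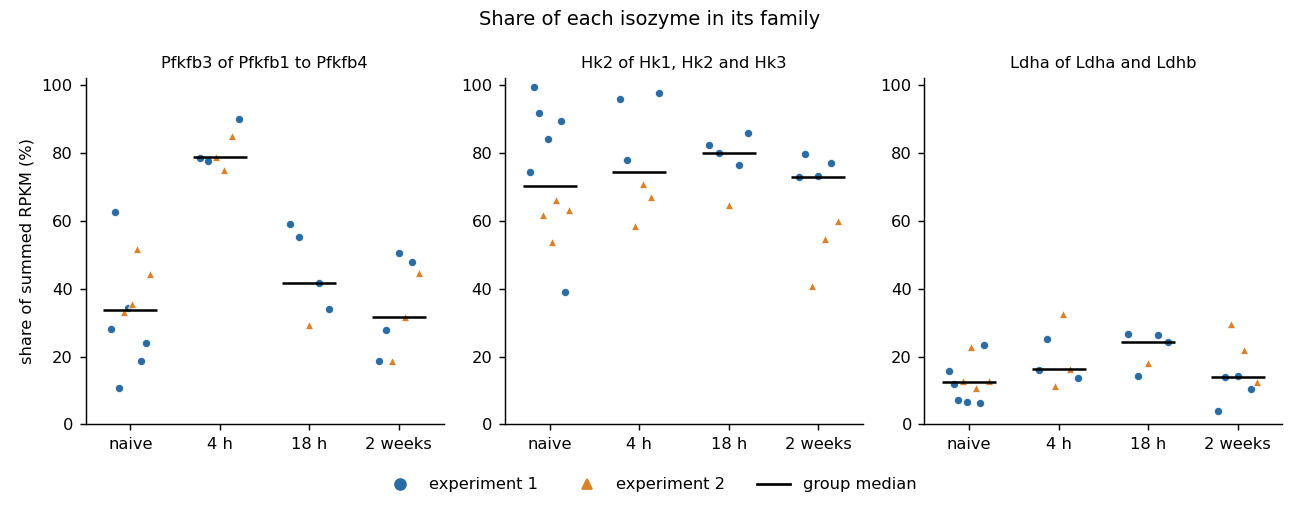
Share in percent of the summed RPKM of a family taken by Pfkfb3, by Hk2 and by Ldha in each of the 28 retinas, by group, with circles for experiment 1, triangles for experiment 2 and a bar at the group median. The Pfkfb3 share at 4 h lies between 75% and 89.9%, above all naïve retinas, and the shares of Hk2 and Ldha overlap between groups.

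The glucose transporter gene Slc2a1, which encodes GLUT1, was between 0.0603 and 20.9 RPKM in naïve retinas (median 3.61). It was between 2.6 and 19.4 RPKM at 4 h (median 6.28), and the groups overlapped. At 18 h the values were 3.53, 2, 5.87, 0.151 and 2.98 RPKM, and at 2 weeks they ran from 2.62 to 14.6 (median 5.67). The naïve range held every value of the 3 later groups. The log2 fold change at 4 h was 0.74 (95% confidence interval -0.352 to 1.84, adjusted p = 0.47 by limma), an interval that holds both no change and a rise of more than 2-fold. Naïve retina 6 and retina 4 at 18 h had the lowest values, at about the level of fewer than 10 reads. Slc2a1 took 84.2% ± 15.7 (SD, n = 10) of the summed RPKM of Slc2a1 and Slc2a3 in naïve retinas, and 92.0% ± 11.3 (n = 6), 95.8% ± 5.71 (n = 5) and 93.8% ± 6.18 (n = 7) at the 3 later times. None of these shares passed the test.

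The hexokinases trap glucose in the cell as glucose 6-phosphate, Hk1 as the broadly used form and Hk2 as the form that is often induced. Hk2 was between 15.6 and 59 RPKM in naïve retinas (median 28.5) and between 10.4 and 75.6 at 4 h (median 36.1). The 18 h retinas had 29, 36.3, 32, 53.7 and 15 RPKM, and at 2 weeks they ran from 13.9 to 47 (median 23.4). The groups overlapped throughout. The log2 fold change at 4 h was 0.07 (95% confidence interval -0.758 to 0.888), which leaves out a 2-fold change in either direction. Hk1 was between 0.0743 and 19.6 RPKM in naïve retinas (median 4.63), and its fold change at 4 h was 0.25 (-1.014 to 1.51), too wide to leave out a doubling or a halving. Hk1 rested on fewer than 10 reads in 4 retinas. Hk2 took 72.4% ± 19.0 (SD, n = 10) of the summed RPKM of Hk1, Hk2 and Hk3 in naïve retinas and 78.0% ± 15.8 (n = 6) at 4 h, a difference of 5.63 percentage points (exact permutation p = 0.55).

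Pfkp, the platelet type of phosphofructokinase, was low. It lay between 0.0477 and 7.21 RPKM in naïve retinas (median 3.43) and between 1.23 and 8.54 at 4 h (median 3.91). The 5 retinas at 18 h had 5.76, 4.4, 3.1, 1.97 and 2.04 RPKM. These values overlapped, and the fold changes on the log2 scale were 0.18 at 4 h, 0.04 at 18 h and 0.08 at 2 weeks, with an adjusted p of at least 0.88 by limma. So the regulator Pfkfb3 was called at 4 h and this form of the enzyme was not, although the difference between the 2 genes was not tested. In naïve retinas Pfkp took 30.4% ± 15.7 (SD, n = 10) of the summed RPKM of Pfkl, Pfkm and Pfkp. At 4 h Pfkp took 42.1% ± 8.59 (SD, n = 6), which did not pass (exact permutation p = 0.12, adjusted p = 0.39). The other forms, Pfkl and Pfkm, were not called at 4 h either.

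Aldoa splits fructose 1,6-bisphosphate into its 2 three-carbon sugars. It was between 9.32 and 438 RPKM in naïve retinas (median 173) and between 83.5 and 344 at 4 h (median 239). The 18 h values were 311, 207, 260, 52.3 and 190 RPKM, and at 2 weeks they ran from 85.9 to 581 (median 195). The naïve range spanned most of the values of the other groups. The log2 fold changes were 0.84 at 4 h, 0.67 at 18 h and 1.01 at 2 weeks. The largest had a 95% confidence interval of -0.168 to 2.19 and an adjusted p of 1 by limma.

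Gapdh oxidises glyceraldehyde 3-phosphate and makes NADH, and it is often used as a reference gene. It was between 9.89 and 165 RPKM in naïve retinas (median 61.9) and between 15.9 and 143 at 4 h (median 103). At 18 h the values were 173, 89.5, 148, 22.4 and 120 RPKM, and at 2 weeks they ran from 16.5 to 159 (median 83.2). One 18 h retina was above all naïve retinas and the rest were within their range. The log2 fold change of 1.04 at 18 h (SE 0.686, 95% confidence interval -0.362 to 2.44, adjusted p = 0.47 by limma) was the largest of the 10 genes at that time and did not pass the test. Transcripts of 77 Gapdh pseudogenes in the table share at least 75 bases with Gapdh at 95% identity or more. They held 10.9% (median) of the RPKM of Gapdh and these copies together, with a range of 8.11% to 45.4%, so the level of Gapdh is uncertain to that extent. Of 10 reference genes, 0 were called at 4 h and 3 rose at 18 h, against 8.08% and 4.69% of all genes called in either direction. The 3 were Actb (1.58, adjusted p = 0.0026 by limma), Rplp0 (1.54, 0.0049) and B2m (1.37, 0.039).

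Pgk1 makes the first ATP of the later steps. It was between 22.7 and 145 RPKM in naïve retinas (median 85.2) and between 44.5 and 129 at 4 h (median 81), with a log2 fold change of 0.00 (95% confidence interval -0.692 to 0.694). At 18 h the values were 140, 143, 151, 63.6 and 119 RPKM, and 4 of these 5 were above the naïve median. The fold change at 18 h was 0.63 (SE 0.36, p = 0.089, adjusted p = 0.38 by limma), the smallest p of the 10 genes at that time. Pgk1 lies on chromosome X, and 2 of its pseudogenes in the table held 2.23% to 17.5% of the RPKM of Pgk1 and these copies.

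Pkm, pyruvate kinase, makes the last ATP, and its M1 and M2 forms are not told apart in these values. It was between 6.19 and 284 RPKM in naïve retinas (median 29.5) and between 7.31 and 237 at 4 h (median 67.5). Retinas at 18 h had 96.9, 44.4, 91, 10.2 and 42.8 RPKM. The groups overlapped, and the log2 fold changes of 0.68 at 4 h, 0.47 at 18 h and 0.80 at 2 weeks had the widest confidence intervals among the 10 genes in each of these comparisons, with -0.90 to 2.26 at 4 h.

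Ldha, the lactate dehydrogenase subunit common in lactate-producing tissue, was between 13.8 and 142 RPKM in naïve retinas (median 37.9) and between 19.4 and 119 at 4 h (median 62.9). Its 18 h values were 106, 48.1, 99.1, 38.5 and 61.9 RPKM. All 5 of these lay above the naïve median and within the naïve range, and the log2 fold change of 0.67 (SE 0.53, adjusted p = 0.57 by limma) did not pass. Its share of Ldha and Ldhb was 13% ± 6.13 (SD, n = 10) in naïve retinas and 22% ± 5.49 (SD, n = 5) at 18 h. This difference of 8.97 percentage points had an exact permutation p of 0.02, or 0.15 adjusted over the 15 tests of shares, so it did not pass. Ldhb was the more abundant subunit in every retina, since the highest Ldha share was 32.5%.

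**Figure D3:**
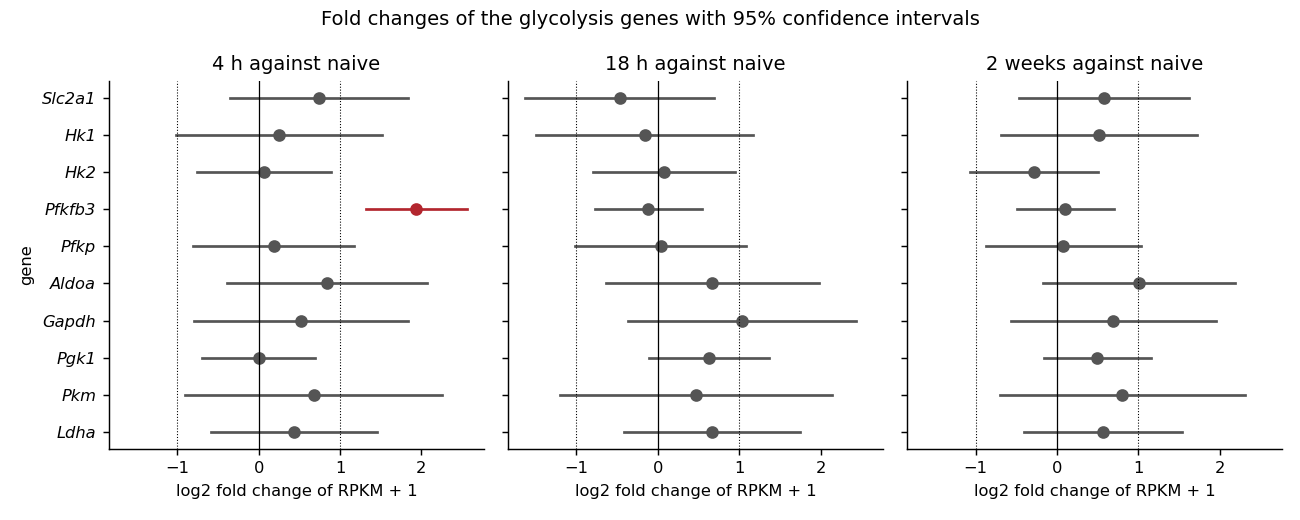
Log2 fold change of RPKM + 1 against naïve retinas (horizontal axis) of each of the 10 glycolysis genes (vertical axis) at each of the 3 times, as points with 95% confidence intervals from limma; dotted lines stand at a 2-fold change, and red marks the called gene. Only Pfkfb3 at 4 h, at 1.94 with an interval of 1.32 to 2.56, has an interval beyond the 2-fold line.

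Counted together, 1 of the 10 genes was called at 4 h, where 8.08% of all genes were. None of the 10 was called at 18 h, where 4.69% of all genes were, and none at 2 weeks, where 0.0076% were. At an unadjusted p under 0.05 there were also 1, 0 and 0. On the log2 scale the median change of the 10 was 0.48 at 4 h, 0.27 at 18 h and 0.54 at 2 weeks. Over all genes tested the medians were -0.11, -0.08 and 0.07. All 10 values were positive at 4 h, 7 at 18 h and 9 at 2 weeks. The members vary together between retinas, as described below, so these counts of signs do not stand for 10 separate observations. From 18 h to 2 weeks 0 of the 10 genes were called, against 2.65% of all genes. In sorted bulk RNA, fewer cells with a transcript and less of it per cell cannot be told apart.

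The 9 genes without a call were measured with wide intervals. Their upper limits at 4 h reached 2.26 on the log2 scale and their lower limits -1.01. Among these genes, 2-fold changes of RPKM + 1 at 4 h in either direction lay outside the interval of Hk2 and of Pgk1 alone.

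Of 30 further glycolytic genes, 19 passed the filter, and 1 of them was called higher at 4 h and 0 at 18 h or 2 weeks. These shares are near those over all genes called in either direction, 8.08% at 4 h and 4.69% at 18 h. At 4 h, 3.68% of all genes were called higher. The median log2 fold change of these 19 at 4 h was -0.16. The called gene was Slc2a6, which encodes GLUT6, a transporter held mainly on internal membranes. It was between 0 and 11.2 RPKM in naïve retinas (median 0.88) and between 2.49 and 60.4 at 4 h (median 7.21). The groups overlapped because naïve retina 1 was at 11.2 RPKM and the other 9 were at 1.67 or below. The log2 fold change was 2.47 (SE 0.539, adjusted p = 0.0022 by limma). By experiment it was 3.13 in experiment 1 (adjusted p = 0.0067) and 1.76 in experiment 2 (adjusted p = 0.44), and the difference did not pass the test (adjusted p = 1). Slc2a6 rested on fewer than 10 reads in 6 retinas. The rise at 4 h was called in 13 of 15 alternative fits. The fall from 4 h to 18 h was called too (-2.15, adjusted p = 0.039 by limma), but in only 5 of 15 alternative fits. That call was also lost when any 1 of 7 retinas was left out (adjusted p up to 0.14). These were retinas 1, 3 and 5 at 4 h and retinas 1, 2, 3 and 4 at 18 h.

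The branches around glycolysis were listed too, beside call rates over all genes of 8.08% at 4 h and 4.69% at 18 h. In the pentose phosphate pathway, which draws on glucose 6-phosphate, 0 of 7 tested genes were called at any of the 3 times. In pyruvate entry and the TCA cycle, which burn pyruvate in mitochondria, 0 of 22 were called at any of the 3 times. Unadjusted p-values under 0.05 were reached by 1, 0 and 0 genes of the former list and 2, 1 and 0 of the latter.

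Among 14 regulators of glycolysis, Txnip, an inhibitor of glucose uptake, fell at 4 h and Mlxip fell at 18 h, 1 of 14 at each time against 8.08% and 4.69% of all genes. Txnip was between 4.24 and 70.2 RPKM in naïve retinas (median 43.6) and between 0.305 and 21.6 at 4 h (median 12.6). All 6 were below the other 9 naïve retinas, and naïve retina 4, at 4.24 RPKM, made the groups overlap. The log2 fold change was -2.0 (SE 0.541, adjusted p = 0.014 by limma). At 18 h it was -1.36, which did not pass the test. The call of Txnip at 4 h held in 12 of 15 alternative fits and in 27 of the 28 fits that left out 1 retina. Mlxip, which encodes a glucose-sensing transcription factor that controls Txnip, was at 1.67, 1.69, 1.8, 0.0846 and 3.04 RPKM at 18 h, against 2.87 to 8.01 in naïve retinas. Its log2 fold change was -1.35 (SE 0.359, adjusted p = 0.022).

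Of 13 hypoxia-inducible targets outside glycolysis, 3 were called at 4 h, against 8.08% of all genes, and the other 10 did not pass. Adm, the gene of the vasodilator peptide adrenomedullin, rose, and Bnip3l and P4ha1 fell. Adm reached no more than 3.09 RPKM in naïve tissue and lay between 7.13 and 110 at 4 h, with no overlap (log2 fold change 4.91, SE 0.499, adjusted p = 1.4e-08 by limma). Bnip3l, which encodes a mitophagy receptor, changed by -1.32 (adjusted p = 0.006), and P4ha1, which encodes a collagen prolyl hydroxylase subunit, by -1.22 (adjusted p = 0.015). The median of the 13 genes was -0.14, close to that of all genes.

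The genes most like Pfkfb3 over the 28 retinas were Tnfaip2 (Pearson r = 0.904), Gm45266 (0.87), Gm10425 (0.867), Exoc3l4 (0.858) and Slc7a11 (0.857). For Pgk1, the gene with the smallest p at 18 h, they were its pseudogenes Pgk1-rs7 (0.916) and Gm5537 (0.915), which can take its reads, then Gyg (0.837), Chst12 (0.801) and Tmem14c (0.796). These are the 5 highest of all genes tested and are given as a description, since the retinas share groups, depth and experiment.

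The glycolysis genes also differed widely between retinas of the same group. From the lowest to the highest naïve retina, Aldoa differed by 47-fold, Pkm by 45.8-fold, Gapdh by 16.7-fold, Pfkfb3 by 12.3-fold and Ldha by 10.3-fold. Slc2a1 (347-fold), Hk1 (263-fold) and Pfkp (151-fold) differed more, with lowest values that rest on few reads. Pgk1 differed by 6.38-fold. Hk2 differed by 3.78-fold. The reference genes Ywhaz and Ppia differed by 1.7-fold and 2.46-fold over the same 10 retinas. The SD of Aldoa on the log2 scale was above that of 98.2% of the 500 genes nearest to it in mean level, and that of Pfkfb3 was above 13.8% of its neighbours.

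With the group means removed, 7 of the genes varied together over the 28 retinas. Hk1, Pfkp, Aldoa, Gapdh, Pgk1, Pkm and Ldha had Pearson r between 0.437 and 0.927 with each other over 21 pairs (median 0.775). Hk2 ran the other way, with r between -0.688 and -0.449 against these 7 genes. Slc2a1 lay between 0.315 and 0.672, and Pfkfb3 between -0.049 and 0.239. So retinas with high Aldoa had high Gapdh and low Hk2, and the level of Pfkfb3 told little of either. These values were grouped after they were seen and are a description.

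**Figure D4:**
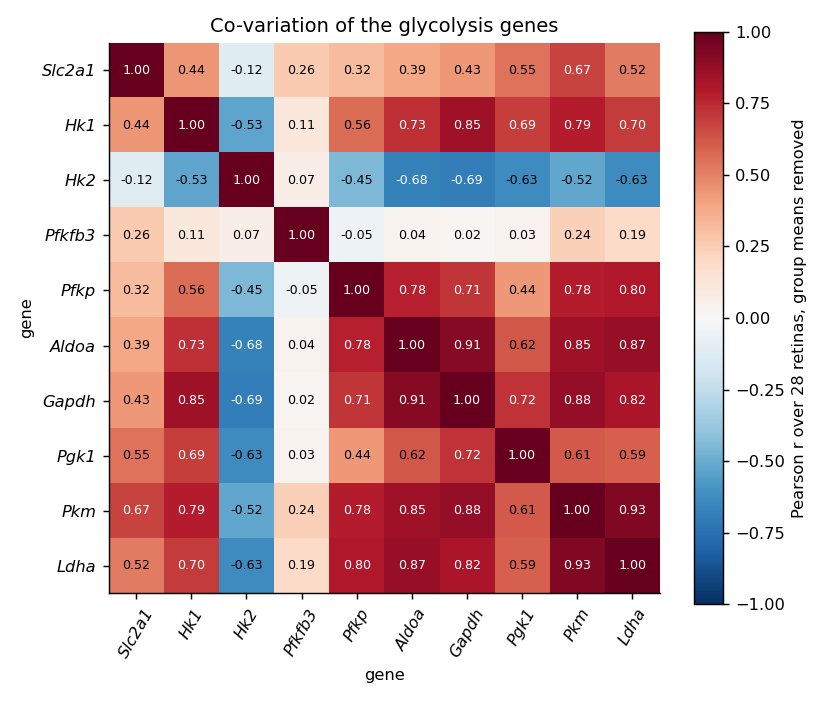
Pearson r over 28 retinas between each pair of the 10 glycolysis genes, on log2(RPKM + 1) with group means removed, with red for positive and blue for negative values. The block from Aldoa to Ldha is positive, Hk2 is negative with all genes of that block, and Pfkfb3 is near 0.

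The same axis followed rod photoreceptor transcripts. With group means removed, Gapdh had a Pearson r of 0.921 with the log2 sum of 10 rod genes over the 28 retinas (Spearman correlation 0.84, permutation p = 1e-05 for each, the smallest that 100000 permutations can give). Aldoa had r = 0.814, Ldha 0.785, Pkm 0.775, Pgk1 0.762, Hk1 0.758 and Pfkp 0.662. Hk2 had r = -0.833, and Pfkfb3 had -0.016 (Spearman correlation -0.11). Of 30 relations computed, between the 10 genes and 3 measures, 8 of 10 with rod genes passed at an adjusted permutation p of at most 0.05, with Slc2a1 (r = 0.329, Spearman correlation 0.299) and Pfkfb3 as the exceptions. Adjusted p-values of these 8 were at most 0.00027 for both the Pearson and the Spearman correlation, and their r without the 2 retinas farthest from the median lay between -0.81 and 0.923. Retinas were permuted within groups but across experiments, so these p-values also take in differences between the experiments.

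Within experiment 1 (17 retinas) the value of r was 0.933 for Gapdh, 0.809 for Aldoa, 0.865 for Ldha, 0.936 for Pkm and -0.617 for Hk2. Within experiment 2 (11 retinas) it was 0.606, 0.649, 0.524, 0.526 and -0.124 for the same genes, and Hk1 turned from 0.797 to -0.285. The relation of Hk1 and Hk2 to rod genes therefore did not hold within experiment 2. The number of genes detected gave like values, with r = 0.911 for Aldoa, 0.887 for Gapdh and -0.659 for Hk2, as did the sum of 14 microglial genes, with r = 0.701, 0.784 and -0.717. Within experiment 2 the microglial sum gave 0.334 for Aldoa, 0.272 for Gapdh and -0.787 for Hk2, and the number of genes gave 0.684, 0.615 and 0.036. So Hk2 followed the microglial sum within experiment 2 but neither the rod sum nor the number of genes, as a description of these 11 retinas.

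**Figure D5:**
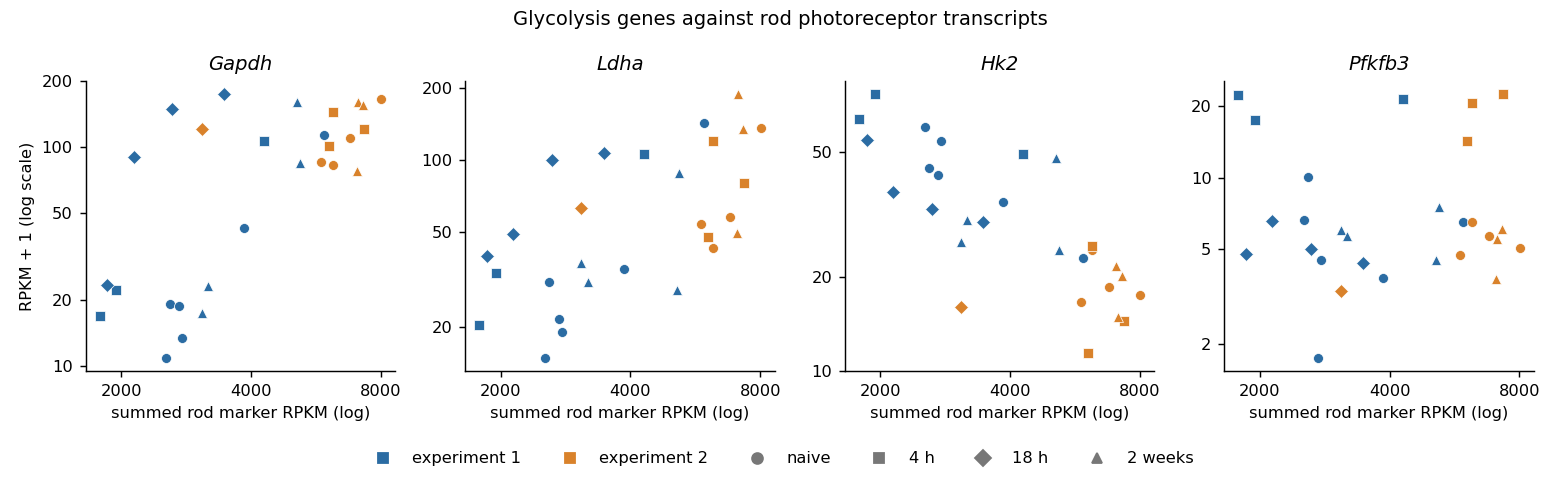
RPKM + 1 of Gapdh, Ldha, Hk2 and Pfkfb3 (vertical axes, log scale) against the summed RPKM of 10 rod photoreceptor genes (horizontal axis, log scale) in 28 retinas, coloured by experiment and shaped by group. Gapdh and Ldha are higher and Hk2 is lower in retinas with more rod transcripts, and the Pfkfb3 retinas at 4 h are high at every rod level.

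The experiments differed as well. With the group as a term, 4 of the 10 genes were called between experiments, against 8.15% of all genes. Gapdh was higher in experiment 2 by 1.63 on the log2 scale (adjusted p = 0.011 by limma), Hk1 by 1.33 (0.032) and Aldoa by 1.31 (0.031), whereas Hk2 was lower, at -1.22 (0.00096). Mean Hk2 was 42 RPKM in experiment 1 and 17.2 in experiment 2, and mean Gapdh was 62.9 and 119. This comparison was chosen after the values were seen. Rod transcripts differ between the experiments too, and the 2 cannot be told apart.

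The rod sum also had its lowest median at 18 h. It lay between 1860 and 3469 RPKM (median 2631), against 2539 to 8019 (median 4844) in naïve retinas. With the log2 rod sum as a covariate, added after the data were seen, 5 of the 10 genes were called at 18 h, all higher. Of all genes, 15.3% were called in either direction in that fit. The log2 fold changes were 2.48 for Gapdh, 1.94 for Pkm, 1.86 for Aldoa, 1.58 for Ldha and 1.19 for Pgk1 (adjusted p between 1.1e-05 and 0.021 by limma). With the number of detected genes as the covariate, 1 gene was called, Gapdh at 1.37, against 10.9% of all genes. The calls at 18 h therefore depend on whether such a covariate is included, and the part of rod transcripts in the result was not tested. Pfkfb3 at 4 h was called with either covariate.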

How the data were processed

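Per the labels and the methods of the study, RNA of sorted microglia was amplified with SMART-Seq v4, made into Nextera XT libraries, which do not mark strand, and sequenced. The submitters' processing notes name bcl2fastq 2.20, STAR 2.5.3a, Partek and the build mm10. The authors trimmed the reads, assigned alignments to Ensembl transcripts by expectation-maximisation in Partek, which can divide a read between genes, and deposited RPKM values per gene and retina. Whole reads cannot be recovered from them, so an exact 0 can be a failed estimate. Read numbers given are approximate, from the longest coding transcript in GENCODE M21. The deposited tables of p-values, mean ratios, fold changes, F statistics and sums of squares for 4 h and 18 h hold the authors' own comparisons and were not used.

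Values were tested as log2(RPKM + 1) with limma 3.58.1 (R 4.3.3), with all 28 retinas in a fit of the 4 groups, a trend of variance with level, and p-values adjusted by Benjamini-Hochberg over 13164 genes. Shares were tested by exact permutation in Python 3.11.15 and relations by 100000 permutations within groups. Copies were found with BLAST 2.17.0. The tests were tested on simulated data. No 2 retinas held the same values. The 10 genes and the gene lists were chosen with earlier results of these data known. Named genes are the 10, the called genes of each other list (at most 4 by smallest p per comparison), and the 5 most like the genes with the smallest p at 4 h and at 18 h. Defining markers were named with them, and other genes were chosen after their values were seen. Alternatives were other pseudocounts (0.1 and 10), other filters, scalings and thresholds, untransformed RPKM, the experiment as a covariate or each experiment alone, the replicate number as a block, a fit restricted to the groups in question, and omission of each retina.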

Additional observations from a re-analysis of the deposited data

Results flagged for a closer look

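Of 72 groups of values of the glycolysis genes, Slc2a6, Adm, Txnip and isozyme shares, 7 held a retina that stood apart from the rest by Dixon's test, where chance gives about 1 in 20 groups. The gene-poor retina 4 at 18 h was lowest for Hk1 (0.0826 RPKM, next 3.18), Aldoa (52.3, next 190) and Pgk1 (63.6, next 119). Retina 1 at 2 weeks, also gene-poor, was lowest for Hk1 (0.0237 RPKM, next 3.7). Naïve retina 4, gene-poor too, was lowest for Pfkp (0.0477 RPKM, next 2.3) and for Txnip (4.24, next 30.6). Naïve retina 1 was highest for Slc2a6 (11.2 RPKM, next 1.67).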

How the results depend on the processing

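The rise of Pfkfb3 at 4 h was called in 14 of 15 alternative fits and in each of the 28 fits that left out 1 retina (log2 fold change 1.77 to 2.05, limma adjusted p 1.2e-05 to 0.00017). With a pseudocount of 10 it was 0.99 (adjusted p = 2.7e-07), just under 2-fold by construction of the larger pseudocount, and 0 of the 10 genes were called at 4 h, against 3.16% of all genes. The count of called genes stayed at 1 at 4 h and at 18 h against 4 h, and at 0 at 18 h, at 2 weeks and at 2 weeks against 18 h, in every fit without 1 retina, and the count of shares that passed stayed at 1, 0 and 0. In experiment 1 alone 0 genes were called at 18 h against 4 h, where Pfkfb3 was at -1.99 (adjusted p = 0.11, fewer retinas). Within 1 experiment 0 shares passed at 4 h (Pfkfb3 differences of 52.4 and 38.5 percentage points, adjusted p = 0.18 and 0.21 by exact permutation), since so few retinas cannot reach a lower p. With the rod sum as a covariate, chosen after seeing the data, 5 genes were called at 18 h, 3 at 18 h against 4 h (Pfkfb3, Gapdh and Pgk1, against 9.65% of all genes) and 2 at 2 weeks against 18 h (Gapdh at -2.28 and Ldha at -1.33, against 9.61%). With the number of genes as a covariate 1 was called at 18 h. The cause of these differences was not tested. Without the 4 retinas under 8000 genes, also chosen after seeing the data, the counts did not change.

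Deviations of same-numbered retinas from their group means had r between -0.329 and 0.698, above 0.1 in 15 of 34 pairs. Of 25 retinas, 7 were closest to one of their own number. Whether same-numbered retinas deviate together was not tested. With the replicate block 1, 0 and 0 genes were called at the 3 times, as without it, and 1 and 0 in the other 2 comparisons, with 1076 genes in all called at 4 h in place of 1063. Of the 48 values of the glycolysis genes without a call, 9 were called under an alternative, each with the rod or gene number covariate, and signs changed in 158 of their fits. Rescaling to equal summed RPKM moved the 4 h median over all genes to -0.28 from -0.11. Hk1, Slc2a1, Pfkp and Slc2a6 are limited by depth in the retinas with few reads.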
